A study of Mus musculus with 25 samples.

Results

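Open chromatin was compared between embryonic day 16.5 (E16.5) and embryonic day 18 (E18) in retinal progenitor cells of the mouse. The members are the 4 ATAC-seq libraries of GFP+ cells at those ages, 2 at each, chosen by assay, sort and age from the 25 samples of the study, of which 13 are ATAC-seq libraries. All were sorted as GFP+ from retinas of CD1 mice, an outbred strain, and are labelled as retinal progenitor cells. The labels give neither the GFP reporter, nor a sex, nor how many animals a library came from, and they do not say that replicates came from separate animals. The p-values below therefore measure only the spread between libraries. The other ATAC-seq libraries are GFP+ cells of the same strain at E10 (1 library), E12.5, E14, postnatal day 0 (P0) and postnatal day 2 (P2), with 2 libraries each. They entered the fits to estimate that spread, and E14 and P0 gave the steps before and after.

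ATAC-seq cuts accessible DNA with a transposase, so a high count marks DNA that is not wrapped tightly in nucleosomes, as at active promoters and enhancers. Retinal progenitors divide and give rise to the retinal cell types in a fixed order. Early progenitors make ganglion cells, horizontal cells and cones, and late ones make rods, bipolar cells and Müller glia. Factors such as Ikzf1 and Lin28b are known from early progenitors, and nuclear factor I proteins (Nfia, Nfib, Nfix) from late ones.

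The measure was the number of reads in each of 27902 regions of 10 kb, centred on a transcript start, on build mm9. It is given as CPM, the read count relative to the scaled total of the library. The libraries held 39314398 and 39693178 region counts at E16.5 and 41288309 and 94662422 at E18. Enrichment at starts was measured by dividing the average count of the windows within the middle 400 bp by that of the windows at the edges. It was 26.7 and 23.7 at E16.5 and 25.8 and 25.1 at E18. Elsewhere in the series E10 (6.404) and P2 replicate 2 (12.2) stood apart in this measure, and the main counts below are also given without E10 and both P2 libraries. Chromosome Y held 0.000964% and 0.00109% of the region counts at E16.5 and 0.00280% and 0.00248% at E18, and chromosome X 2.51% and 2.71% at E16.5 and 2.38% and 2.32% at E18. Beside the label of progenitor cells, the start region of Six6, a homeobox gene of retinal progenitors, had 123 and 133 CPM at E16.5 and 120.4 and 127 at E18. By contrast Gata1, an erythroid regulator, had 1.16 and 1.82 at E16.5 and 3.04 and 2.33 at E18. Summed over their lists, 14 progenitor genes had 2041 and 2096 CPM at E16.5 and 10 erythroid genes 85.8 and 89.9. These values do not tell progenitors from retinal neurons, as Pou4f2, a factor of ganglion cells, had 52.7 and 54.9 CPM at E16.5.

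Most start regions did not pass the test between E16.5 and E18. At a Benjamini-Hochberg adjusted p under 0.05 in edgeR's quasi-likelihood test, 70 of 27902 regions were higher at E18 (0.251%) and 297 were lower (1.06%), together 367 or 1.32%. Overlapping regions of one promoter are counted apart here, and the calls came from 60 and 269 separate loci. The median log2 fold change of the regions called higher was 0.64 and that of the regions called lower was -0.55, while the median over all regions was near 0. Values of the 2 ages did not overlap in any of the 367 called regions, as in 52.5% of all regions tested.

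The size of this count depended on the libraries in the fit. Without E10 and both P2 libraries, 1061 regions were higher and 1831 lower (10.4% of 27743), and these held all 367. Without E18 replicate 2 it fell to 36, without E16.5 replicate 2 to 66, without E18 replicate 1 to 127 and without E16.5 replicate 1 to 223. Upper quartile scaling gave 141 higher and 322 lower and library totals 169 and 316, and 191 and 236 of the 367 were called under them.

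The promoter sequences of 5 genes with large changes are shown first, because in each the 2 kb around the start was itself called. They were chosen after their values were seen, from the named genes whose start could be matched to an entry. Each runs from 250 bases before to 50 after the start and was taken from RefSeq on GRCm38.p6. Capitals mark matches on either strand to letters known from binding sites. These were CAGCTG and, as another E-box, CAGATG, for nuclear factor I TTGGCA, for homeobox factors TAATTA, for OTX and CRX TAATCC, for SOX factors ACAATGG and for AP-1 TGACTCA. The others were CCGGAAG for ETS factors, the CCAAT box, the GC box GGGCGG and the TATA box TATAAA. Adjoining matches run together.
Fggy, chr4:95557257-95557556, plus strand: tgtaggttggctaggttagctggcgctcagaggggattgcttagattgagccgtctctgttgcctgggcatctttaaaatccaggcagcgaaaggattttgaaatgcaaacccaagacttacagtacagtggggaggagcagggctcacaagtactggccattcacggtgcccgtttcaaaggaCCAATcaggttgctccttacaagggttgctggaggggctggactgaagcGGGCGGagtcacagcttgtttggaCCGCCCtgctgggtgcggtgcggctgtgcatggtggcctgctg
Pou2f1, chr1:165934899-165935198, minus strand: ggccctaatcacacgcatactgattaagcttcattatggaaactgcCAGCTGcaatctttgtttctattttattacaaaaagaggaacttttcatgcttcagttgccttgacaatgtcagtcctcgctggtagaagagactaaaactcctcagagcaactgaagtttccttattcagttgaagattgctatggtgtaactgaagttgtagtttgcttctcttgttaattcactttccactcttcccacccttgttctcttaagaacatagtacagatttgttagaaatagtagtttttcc
Prss56, chr1:87183064-87183363, plus strand: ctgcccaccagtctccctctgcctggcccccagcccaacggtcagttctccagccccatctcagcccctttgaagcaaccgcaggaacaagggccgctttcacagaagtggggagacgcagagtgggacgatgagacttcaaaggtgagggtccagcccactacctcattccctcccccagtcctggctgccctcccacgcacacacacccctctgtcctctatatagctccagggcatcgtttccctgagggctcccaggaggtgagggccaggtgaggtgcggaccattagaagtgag
Emp1, chr6:135362681-135362980, plus strand: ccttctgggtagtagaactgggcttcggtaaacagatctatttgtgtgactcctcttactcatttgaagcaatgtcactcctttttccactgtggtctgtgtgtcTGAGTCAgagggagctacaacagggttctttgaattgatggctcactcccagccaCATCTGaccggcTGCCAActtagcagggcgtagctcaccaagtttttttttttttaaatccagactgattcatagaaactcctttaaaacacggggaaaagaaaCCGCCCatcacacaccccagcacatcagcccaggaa
Btbd3, chr2:138278243-138278542, plus strand: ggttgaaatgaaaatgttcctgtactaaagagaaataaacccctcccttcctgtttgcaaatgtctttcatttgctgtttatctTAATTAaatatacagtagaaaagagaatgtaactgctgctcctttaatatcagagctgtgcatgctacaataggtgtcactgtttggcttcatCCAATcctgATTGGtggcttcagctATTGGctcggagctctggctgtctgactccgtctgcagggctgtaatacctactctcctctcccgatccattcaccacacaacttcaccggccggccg

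The Fggy promoter held a CCAAT box and a pair of GC boxes, the Pou2f1 one a single E-box, and the Prss56 one none of these letters. Of the 32851 promoters in the table, 37.4% held CCAAT, 35.7% GGGCGG and 16.3% CAGCTG. The last was found in 13 of 46 genes called higher that had an entry and in 54 of 202 called lower, against 18.1% of tested genes with an entry. CCGGAAG was found in 4 of the 46 and in 6 of the 202, against 12.9%. A match is a description of letters and was not tested as a site.

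Among the regions that opened, those at starts of Prss56, Pou2f1 and Nfix were as high or higher at P0. Prss56, a serine protease known from Müller glia and eye growth, had 43.1 and 38.0 CPM at E16.5 and 74.9 and 82.2 at E18 (chr1:89074889-89084888, mm9). Both E18 libraries were above both E16.5 libraries, with a log2 fold change of 0.95 (SE 0.14, edgeR adjusted p = 8.54e-06). At E14 it had 26.4 and 27.0 CPM and at P0 94.4 and 84.1.

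Inside that region the windows just before the start differed most. The window centred 300 bp upstream had 3.68 and 2.29 CPM at E16.5 and 12.5 and 12.9 at E18, while at E14 it had 0.429 and 0.412. It made up 25.7% of the difference of the region. The peak 3900 bp into the gene had 4.66 and 3.95 CPM at E16.5 and 4.86 and 5.20 at E18.

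Pou2f1, the octamer-binding factor Oct-1, has starts far apart, and they did not look alike. The region at its downstream start (chr1:167860079-167870078) had 28.2 and 28.0 CPM at E16.5 and 60.6 and 62.1 at E18, a log2 fold change of 1.13 (SE 0.14, edgeR adjusted p = 1.87e-08). The upstream start region had a log2 fold change of 0.06 (SE 0.19, edgeR adjusted p = 0.98). The difference between the starts was not tested. At the downstream start E14 had 6.94 and 6.41 CPM, below both E16.5 libraries.

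Nfix was the one nuclear factor I gene whose start regions were called. Its most covered region (chr8:87293268-87303267) had 24.5 and 25.6 CPM at E16.5 and 40.8 and 42.3 at E18, with 13.6 and 14.7 at E14 and 51.9 and 60.4 at P0. All 4 values of E16.5 and E18 lay between those of E14 and P0. The log2 fold change was 0.73 (SE 0.12, edgeR adjusted p = 0.000121) there and 0.52 (SE 0.12, edgeR adjusted p = 0.0113) at its other start. Nfia and Nfib, from the same family, had 0.18 (SE 0.17) and 0.21 (SE 0.19) and did not pass.

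**Figure D1:**
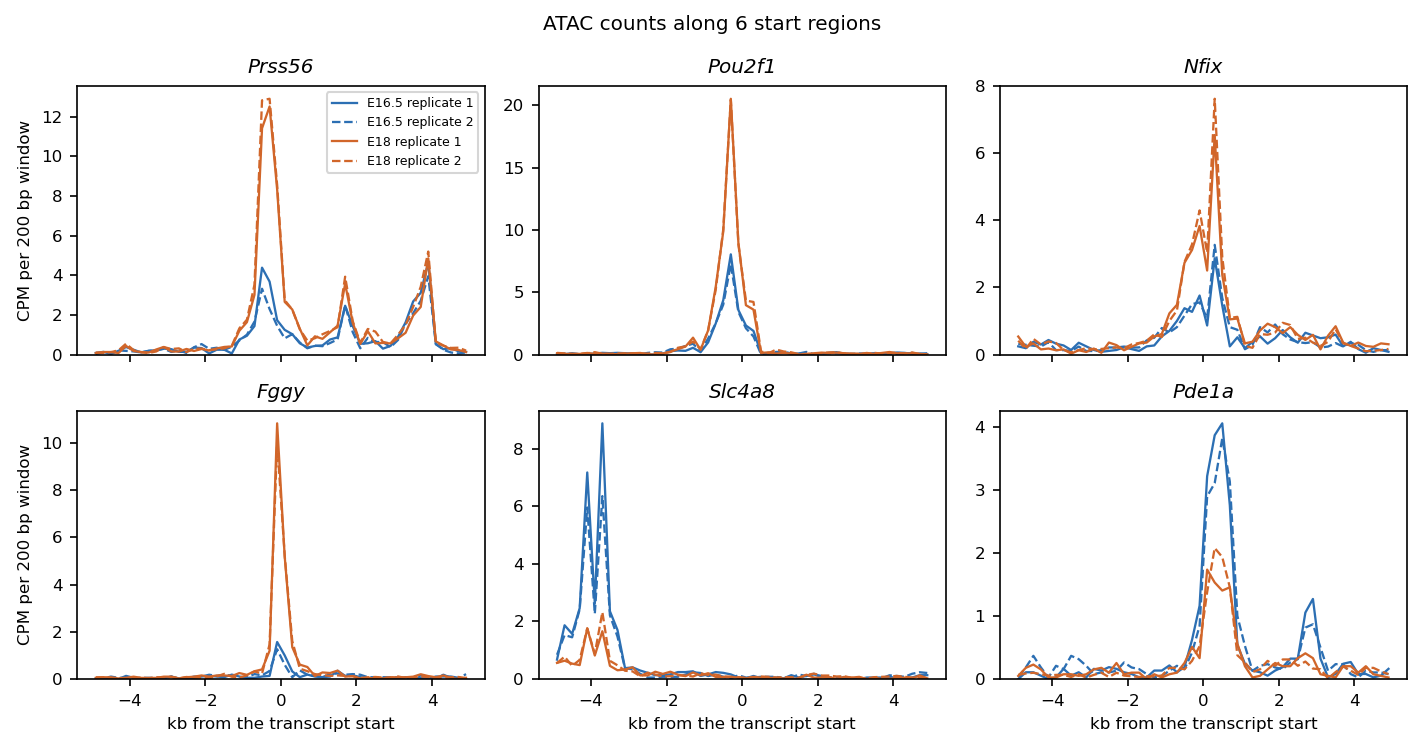
ATAC counts in 200 bp windows (CPM, y axis) by distance from the transcript start in kb (x axis) for 6 start regions, 1 line per library, blue for E16.5 and orange for E18. At Prss56, Pou2f1, Nfix and Fggy the orange lines are above the blue ones near the start, at Slc4a8 the blue peaks lie upstream of it, with one at 3700 bp, and at Pde1a the blue lines are above just inside the gene.

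The locus of the let-7b and let-7c-2 microRNAs also opened. These microRNAs are known for blocking genes of early developmental stages, Lin28b among them, and the Lin28 proteins in turn block their maturation. The mature 5p strands, from RefSeq on GRCm38.p6, share the seed (bases 2 to 8, in capitals), and miR-125b, whose region fell, is shown beside them.
mmu-let-7b-5p: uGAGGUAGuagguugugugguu
mmu-let-7c-5p: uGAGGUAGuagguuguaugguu
mmu-miR-125b-5p: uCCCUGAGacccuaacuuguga

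The region of Mirlet7b (chr15:85532749-85542748) had 17.1 and 14.4 CPM at E16.5 and 26.4 and 29.98 at E18, a log2 fold change of 0.84 (SE 0.13, edgeR adjusted p = 8.54e-06). That of Mirlet7c-2 overlaps it (0.77), as does that of the host transcript Lncppara (0.95), so the 3 are one locus. The region of Mir125b-2 (chr16:77641518-77651517) had 26.6 and 31.8 CPM at E16.5 and 19.3 and 16.7 at E18, a log2 fold change of -0.70 (SE 0.12, edgeR adjusted p = 0.000319). In both loci the ages did not overlap. Another copy of let-7c, Mirlet7c-1, lies near Mir99a, and neither region passed (log2 fold changes of -0.53 and -0.42, SE 0.35 and 0.32). The regions of Mirlet7a-1, Mirlet7a-2, Mirlet7d, Mirlet7e, Mirlet7f-1, Mirlet7f-2, Mirlet7g and Mirlet7i did not pass either. Their log2 fold changes ran from -0.59 (Mirlet7a-2, SE 0.47) to 0.37 (Mirlet7f-2, SE 0.40). The other copy of miR-125b, Mir125b-1, did not pass (-0.37, SE 0.12). A start region of Mir99ahg, the host transcript of Mir99a, was called lower (log2 fold change -0.51, SE 0.14, edgeR adjusted p = 0.0321). These regions were looked up after values were seen. Lin28b itself had 33.9 and 38.8 CPM at E16.5 and 27.9 and 27.2 at E18 (log2 fold change -0.40, SE 0.12, edgeR adjusted p = 0.0793), which did not pass, although without E10 and both P2 libraries it did (adjusted p = 0.00235).

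The region with the smallest p of all was at an upstream start of Fggy, a carbohydrate kinase (chr4:95219198-95229197). It had 6.52 and 7.20 CPM at E16.5 and 24.9 and 23.3 at E18, a log2 fold change of 1.81 (SE 0.17, edgeR adjusted p = 1.04e-12). The other ages were not in one order: 38.2 and 41.4 CPM at E12.5, 22.8 and 20.2 at E14, 16.7 and 17.8 at P0 and 5.89 and 11.2 at P2. The E16.5 libraries were thus below those of both neighbouring ages. At the second start the log2 fold change was -0.14 (SE 0.38).

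Nat8f4, of the N-acetyltransferase family, was also lower at E16.5 than at E14, with low counts. Its region had 3.11 and 2.56 CPM at E16.5, 7.05 and 9.03 at E18 and 5.50 and 6.48 at E14, with a log2 fold change of 1.51 (SE 0.36, edgeR adjusted p = 0.0121). Gal3st2, a galactose sulfotransferase, had 0 and 2 reads at E16.5 and 64 and 97 at E18. The ratio of depth-scaled counts was 46.7, with a 95% interval of 12.7 to 389 that covers counting error only. These are among the lowest counts named here, and the calls of both genes were lost in at least 3 of the 4 fits that left out 1 library.

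The Y-linked genes Ddx3y (an RNA helicase), Eif2s3y (a translation factor subunit) and Uty (a relative of a histone demethylase) were called higher and make up 3 of the 15 regions on chromosome Y. Ddx3y had 2.52 and 3.43 CPM at E16.5 and 8.54 and 8.05 at E18, a log2 fold change of 1.48 (SE 0.30, edgeR adjusted p = 0.00226). Eif2s3y and Uty had log2 fold changes of 1.44 and 1.24. Counts were low, with means of 111.5, 108.5 and 161 reads at E16.5 for Ddx3y, Eif2s3y and Uty. With 1 library left out their log2 fold changes ranged from 1.27 to 1.71, 1.369 to 1.505 and 0.98 to 1.46. The call of each of these genes was lost in some of those fits. The median over the 15 regions of chromosome Y was 1.24 and that over the 1211 of chromosome X was -0.16. On X 0 regions were called higher and 18 lower, where 0.251% of all regions were called higher and 1.06% lower. Of the numbered autosomes only chromosome 3 had no region called higher, with 0 higher and 32 lower of 1341 regions. The part of the sex of the embryos in the values of X and Y was not tested. With chromosomes X and Y left out before the fit, 79 regions were higher and 332 lower.

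The remaining genes named by size among the higher regions were Sh2d3c, an adaptor protein (log2 fold change 0.93), Krt15, a keratin (0.85), and Sardh, a mitochondrial dehydrogenase of sarcosine (0.82). Krt15, whose region also holds exons of Krt19, had 21.1 and 19.1 CPM at E16.5 and 35.03 and 37.5 at E18. Sardh had 8.74 and 4.93 at E16.5 and 10.6 and 13.5 at E18, so its E16.5 replicates spread widely. In the central 2 kb alone Krt15 and Sh2d3c did not pass (edgeR adjusted p = 0.796 and 0.872), while Sardh did.

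Among the regions that closed, the largest change was near a downstream start of Slc4a8, a sodium-driven bicarbonate exchanger (chr15:100606685-100616684). It had 34.2 and 29.0 CPM at E16.5 and 11.2 and 12.8 at E18, a log2 fold change of -1.40 (SE 0.15, edgeR adjusted p = 1.31e-09). The ages did not overlap, and E14 (14.5 and 13.7 CPM) was close to E18. The change was not at the start: the window 3700 bp upstream of it had 8.88 and 6.35 CPM at E16.5 and 1.66 and 2.33 at E18, and the central 2 kb did not pass (log2 fold change -0.31, SE 0.59).

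Pde1a, a calmodulin-dependent phosphodiesterase, closed at its upstream starts. The region (chr2:79964815-79974814) had 23.8 and 24.3 CPM at E16.5 and 13.2 and 13.4 at E18, a log2 fold change of -0.86 (SE 0.13, edgeR adjusted p = 2.62e-05). The values at P0, 14.4 and 14.8 CPM, were close to those at E18. The 2 regions at its downstream starts had -0.82 and -0.65 and did not pass.

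Btbd3, a BTB-domain protein known for orienting dendrites, had 32.4 and 42.4 CPM at E16.5 and 21.4 and 20.6 at E18 at its second start, a log2 fold change of -0.83 (SE 0.13, edgeR adjusted p = 2.62e-05). Its first start had -0.18 (SE 0.15) and did not pass. Crispld1, a secreted cysteine-rich protein, had 19.6 and 22.5 CPM at E16.5 and 12.2 and 11.2 at E18 (log2 fold change -0.86, SE 0.14, edgeR adjusted p = 0.000121). Pld5, of the phospholipase D family, had 15.8 and 18.4 at E16.5 and 8.92 and 10.0 at E18 (-0.85, SE 0.16). For each of these the ages did not overlap, and each had been higher still at E12.5. The E12.5 values were 59.0 and 68.6 CPM for Btbd3, 50.6 and 59.2 for Crispld1 and 44.6 and 44.1 for Pld5.

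The other genes named by size among the lower regions were Ifi202b, an interferon-inducible gene (log2 fold change -1.20), Asb5, a SOCS-box protein (-1.13), Hpgds, a prostaglandin D synthase (-0.94), and the X-linked ubiquitin ligase Mid1 (-0.93). Emp1, an epithelial membrane protein, had -0.90, the transporter Slco1a5 -0.89 and Ddi1, which lies in an intron of Pdgfd, -0.83. Ifi202b had 11.1 and 19.9 CPM at E16.5 and 7.002 and 6.55 at E18, and its call was lost without E16.5 replicate 2 or without E18 replicate 2. Of the 24 regions named by size, 11 passed in each of the 4 fits that left out 1 library and 13 were lost in at least 1.

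**Figure D2:**
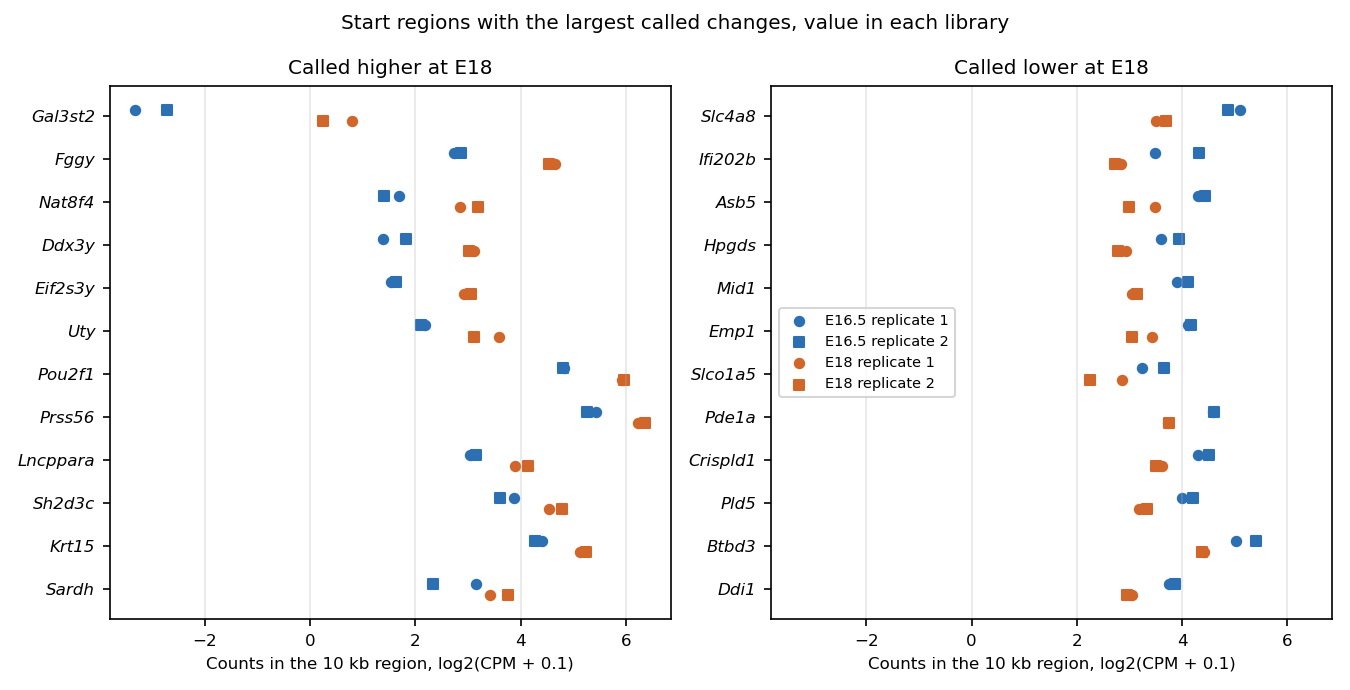
CPM in each of the 4 libraries (log2 of CPM + 0.1, x axis) for the 12 regions named in each direction, blue for E16.5 and orange for E18, circles for replicate 1 and squares for replicate 2. In each row the blue and orange symbols do not overlap, and the Gal3st2 values at E16.5, from 0 and 2 reads, lie at the left edge.

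Start regions of the core progenitor genes did not pass the test. Of the 14 genes listed for progenitor identity and division, 0 were called in either direction, where 0.244% of genes were called higher and 1.02% lower with 1 start per gene. The median of their log2 fold changes was 0.05. Pax6, a master regulator of the eye, had 187 and 203 CPM at E16.5 and 180 and 191 at E18 (log2 fold change -0.07, SE 0.20). Sox2, a factor of neural stem cells, had 149 and 162 at E16.5 and 151 and 158 at E18 (-0.01, SE 0.19). For both, and for Six6 (-0.05, SE 0.18), the ages overlapped. Lhx2 had 174 and 175 CPM at E16.5 and 176 in both libraries at E18 (0.01, SE 0.20). Of the same 14 genes, 0 had an unadjusted p under 0.05 in edgeR, against 2536 of all 27902 regions, and DESeq2 called 0.

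Hes5, an effector of Notch signalling, had 198.7 and 177 CPM at E16.5 and 220.0 and 241 at E18, with a log2 fold change of 0.30 (SE 0.21, edgeR adjusted p = 0.78). It was the one gene of the core list that passed without E10 and both P2 libraries (adjusted p = 0.00311), where 3.82% of regions were higher and 6.6% lower. Under that fit Hes5, Mfng and Rfng, the latter pair being glycosyltransferases that modify Notch, were higher and the ligand Jag1 lower, out of 20 genes of the Notch pathway. In the edgeR fit of all libraries 0 of the 20 passed, with a median of 0.12, and DESeq2 called 0. An unadjusted p under 0.05 in edgeR was found for 2 of the 20, against 2536 of all 27902 regions.

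Lists of early and late progenitor genes each had 1 member called, against 1.02% of all genes called lower and 0.244% higher. Among 18 early and temporal genes it was Ikzf1, a zinc-finger factor of early progenitors, which had 42.1 and 43.3 CPM at E16.5 and 30.8 and 28.9 at E18 (log2 fold change -0.52, SE 0.13, edgeR adjusted p = 0.0197). Both E18 values were below both E16.5 values, and the call was lost when any 1 of the 4 libraries was left out. Among 15 late genes it was Nfix, which kept its call in each of those fits. Without E10 and both P2 libraries, 3 of the 18 early genes were lower (Ikzf1, Lin28b and Sfrp1, a Wnt antagonist) and 0 higher, and 3 of the 15 late genes were higher (Nfix, Sox8 and Nfic) and 0 lower, against 6.6% of all regions lower and 3.82% higher in that fit.

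Genes of Müller glia did not move one way. Rlbp1, a retinoid-binding protein of these cells, had 31.3 and 30.2 CPM at E16.5 and 41.6 and 41.0 at E18 (log2 fold change 0.42, SE 0.12, edgeR adjusted p = 0.0523), which did not pass, although its central 2 kb did (0.62, SE 0.16, edgeR adjusted p = 0.0098). The water channel Aqp4 had 19.6 and 22.6 at E16.5 and 15.6 and 14.4 at E18 and was called lower (-0.50, SE 0.14, edgeR adjusted p = 0.0484), as were 1.02% of all genes. Its call was lost when any 1 of the 4 libraries was left out. Without E10 and both P2 libraries Rlbp1 was higher, and Aqp4, Clu and Slc1a3 were lower, out of 14, where 3.82% of regions were higher and 6.6% lower.

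Among 19 pan-neuronal genes the median log2 fold change was -0.11, and 1 was called lower and 0 higher, against 1.02% and 0.244% of all genes. Stmn2, a regulator of microtubules in axons, had 39.7 and 40.1 CPM at E16.5 and 31.2 and 28.8 at E18 and did not pass (-0.41, SE 0.12, edgeR adjusted p = 0.0759), although the ages did not overlap. Without E10 and both P2 libraries, 7 of the 19 were lower and 1 higher, where 6.6% of regions were lower and 3.82% higher. Stmn2, Snap25, Syt1, Myt1l, Gap43 and Elavl4, which serve the synapse, the cytoskeleton of axons or neuronal identity, were among those lower.

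Of 19 genes of ganglion cells, an early-born neuron, 0 passed in the edgeR fit of all libraries (median -0.11) and DESeq2 called 0. An unadjusted p under 0.05 in edgeR was found for 4 of the 19, against 2536 of all 27902 regions. Pou4f2, the defining factor of ganglion cells, had 52.7 and 54.9 CPM at E16.5 and 39.6 in both libraries at E18 (log2 fold change -0.44, SE 0.13, edgeR adjusted p = 0.0536). The ages did not overlap, and its central 2 kb passed (-0.48, SE 0.13, edgeR adjusted p = 0.0205). Without E10 and both P2 libraries Pou4f2, Stmn2, Gap43 and Elavl4 were lower, where 6.6% of all regions were lower. The last 3 of these genes are shared with the pan-neuronal list. In sorted bulk cells, a smaller share of neurons and a lower accessibility per cell cannot be told apart.

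In each of 3 lists of other neuron types 1 gene was called lower, against 1.02% of all genes. They were Th, the dopamine-producing enzyme of some amacrine cells, from 19.7 and 18.2 CPM to 9.74 and 14.5 (log2 fold change -0.63, SE 0.15), and Rxrg, a receptor of cones, from 24.4 and 21.9 to 16.3 and 16.9 (-0.48, SE 0.13). The third was Grik1, a glutamate receptor of bipolar cells (-0.51, SE 0.14). The edgeR adjusted p was 0.0114, 0.0354 and 0.0350, and each was lost in at least 2 of the 4 fits that left out 1 library. Of 27 cone and rod genes the median was 0.17, above 0 in 20, with Crx at 0.21 (SE 0.12) and not past the test. In the fit without E10 and both P2 libraries 0 of these 27 were higher and 3 lower, against 3.82% and 6.6% of all regions, with a median of 0.17.

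The cell cycle lists had 0 called of 25 genes each in edgeR, with medians of -0.07 for S phase and 0.07 for G2/M. An unadjusted p under 0.05 in edgeR was found for 1 and 3 of them, against 2536 of all 27902 regions, and DESeq2 called 0 and 0. Without E10 and both P2 libraries Top2a, Aurkb and Ube2c, which act in mitosis, were higher and Pola1 and Ccne2, which act in S phase, were lower. Aurkb had 54.0 and 53.5 CPM at E16.5 and 68.8 and 71.9 at E18 (log2 fold change 0.39, SE 0.15 in the fit of all libraries). In the same fit without those libraries, 5 of 27 genes of Wnt and Hedgehog signalling were lower, Boc, a Hedgehog co-receptor, among them, and Wnt7b and Axin2 were higher. The retinoic acid enzymes Aldh1a1 and Aldh1a3 and the receptor Rarb were lower, out of 24 genes of FGF and retinoic acid signalling. These counts stand beside 6.6% of all regions lower and 3.82% higher in that fit.

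Markers of cells that a sort could carry over were also read. Of the 10 microglial, 10 erythroid and 12 lens genes 0 were called in edgeR, and DESeq2 called 0, 0 and 0. An unadjusted p under 0.05 in edgeR was found for 1, 0 and 0 of them, against 2536 of all 27902 regions. Summed over the list, microglial genes had 51.4 and 51.0 CPM at E16.5 and 56.0 and 59.8 at E18, erythroid genes 85.8 and 89.9 and then 90.8 and 93.4, and lens genes 93.7 and 93.1 and then 102.5 and 102.8. Both E18 sums were thus above both E16.5 sums in each of these lists, although 4 of 10 erythroid genes had a log2 fold change above 0 (median -0.05). In the lists of other such cells the sums of the ages overlapped. Endothelial genes had 287.2 and 301.5 CPM at E16.5 and 294.7 and 296.3 at E18. Pigment epithelium genes had 202.1 and 223.3 and then 213.2 and 199.6, and those of astrocytes and mesenchyme 478.1 and 522.5 and then 491.1 and 492.3. Tyrobp, a microglial adaptor, had 2.11 and 1.71 CPM at E16.5 and 3.45 and 3.91 at E18, and passed without E10 and both P2 libraries. Of 12 endothelial genes the factor Sox17 was called lower (-0.47, SE 0.12), and 5 had a log2 fold change above 0 (median -0.03). Of 10 pigment epithelium genes Ttr, a transthyretin, was called higher (0.45, SE 0.13), and 3 were above 0 (median -0.09). Over all genes 1.02% were called lower and 0.244% higher. Without E10 and both P2 libraries each of these lists had 1 gene higher and 1 lower, where 3.82% of regions were higher and 6.6% lower. The call of Sox17 was kept in 1 of the 4 fits that left out 1 library and that of Ttr in 0. The part of such cells in the results was not tested.

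**Figure D3:**
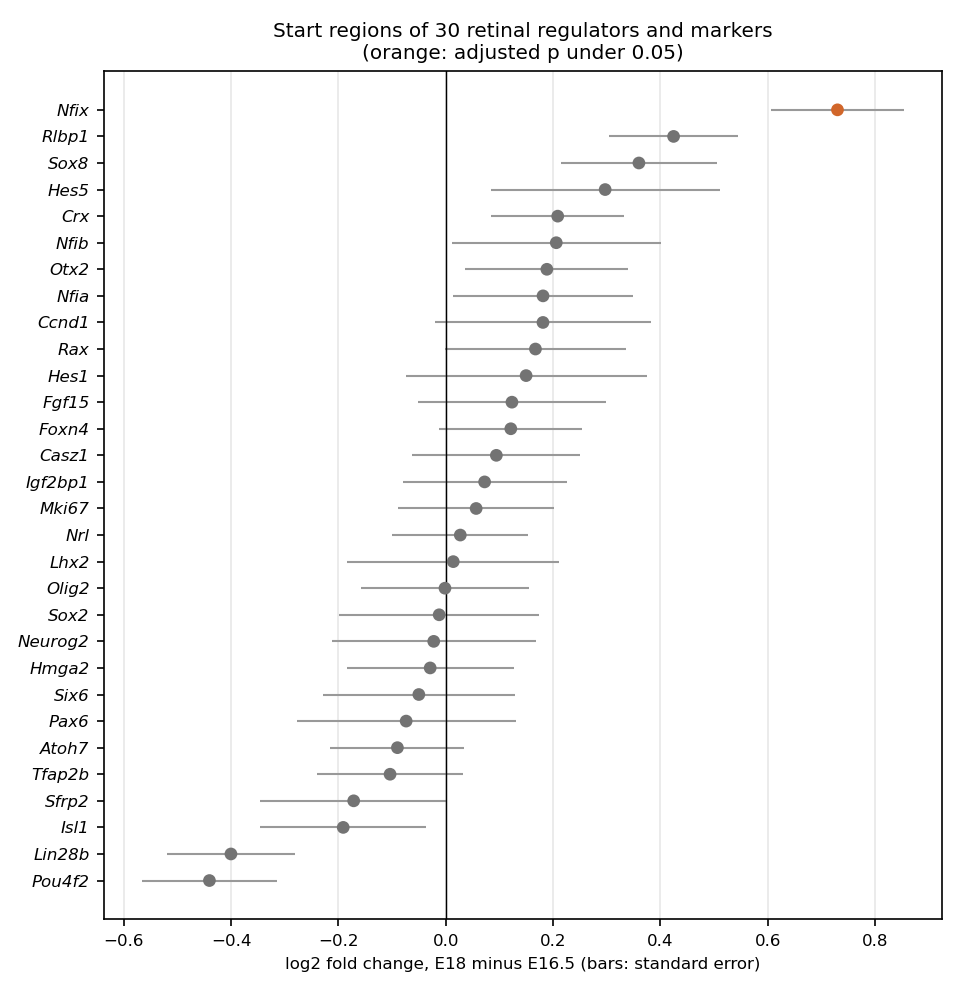
Log2 fold change from E16.5 to E18 (x axis, bars show the standard error) of the start regions of 30 retinal regulators and markers, in orange where the edgeR adjusted p is under 0.05. Nfix at 0.73 is the only orange point, and Pou4f2, Lin28b and Rlbp1 lie furthest from 0 among those that did not pass.

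**Figure D4:**
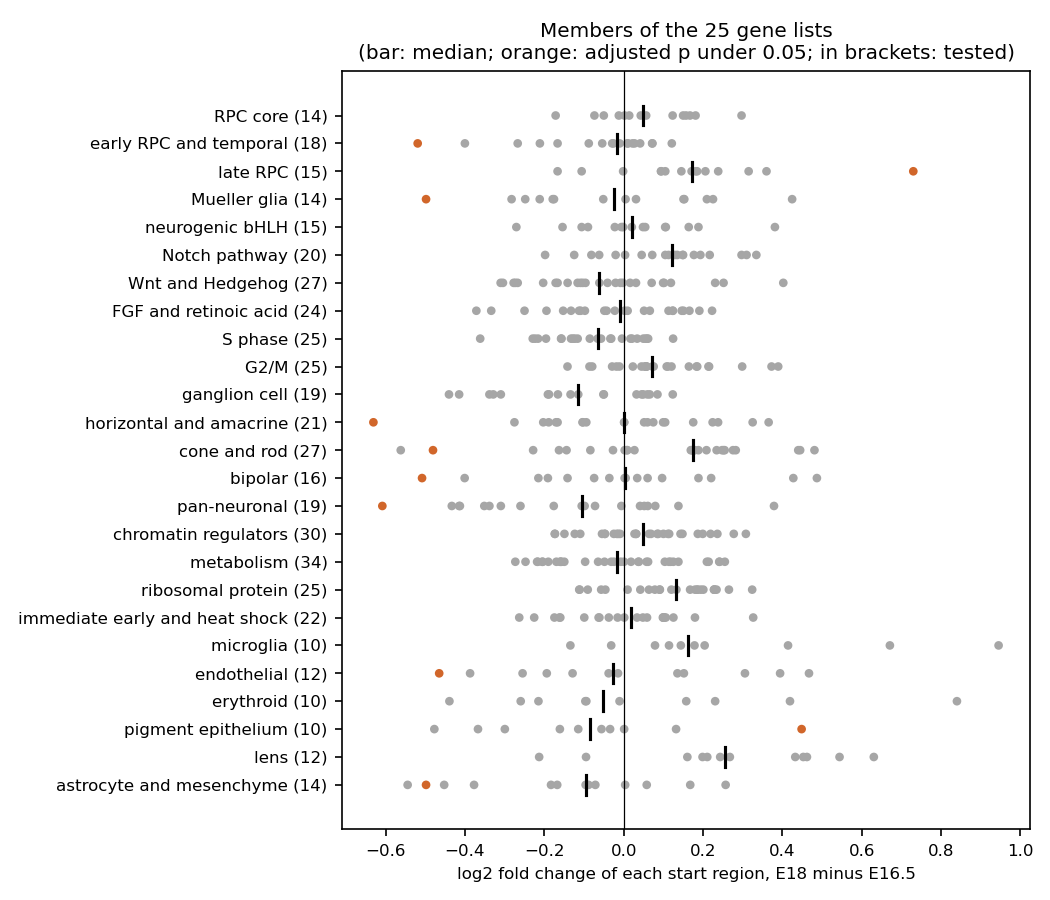
Log2 fold change from E16.5 to E18 (x axis) of each start region in the 25 gene lists (1 point per gene, bar at the median, orange where the edgeR adjusted p is under 0.05). No list has more than 1 gene called in a direction, and the medians lie between -0.11 (ganglion cell) and 0.26 (lens).

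ATAC reads were also counted over the exons of genes, and few genes were called. Of 22097 genes 5 were higher (0.0226%) and 23 lower (0.104%), together 0.127%, while 1839 had an unadjusted p under 0.05 and DESeq2 called 33. No more than 1 call was left when any 1 of the 4 libraries was left out, whereas 1983 genes passed without E10 and both P2 libraries. Elfn2, a synaptic leucine-rich repeat protein, had 51.6 and 45.2 CPM at E16.5 and 89.6 and 98.2 at E18 (log2 fold change 0.96, SE 0.16, edgeR adjusted p = 0.0133). The histone gene Hist2h2bb had 109 and 112 at E16.5 and 195 and 215 at E18 (0.89, SE 0.16). Reads of histone genes can be shared between near-identical copies, so this value is uncertain.

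Rbm19, an RNA-binding protein, and Uty were also higher, with log2 fold changes of 0.81 and 1.23. Among those lower, Lrrn3, a neuronal leucine-rich repeat protein, had 47.2 and 52.8 CPM at E16.5 and 28.8 and 24.5 at E18 (-0.92, SE 0.16, edgeR adjusted p = 0.0159). Thbd, thrombomodulin, had 44.2 and 43.5 at E16.5 and 22.6 and 25.3 at E18 (-0.86, SE 0.16), and 76.3 and 76.1 at E14. Esr1, the estrogen receptor, the zinc transporter Slc30a8, the pituitary factor Pou1f1, the chemokine Cxcl3 and the olfactory receptor Olfr94 fell by between 0.83 and 0.96. Crispld1, named from its start region, was lower by exon counts too (-0.95). Nfix had 87.1 CPM in both libraries at E16.5 and 129 and 140 at E18 by exons and did not pass (0.63, SE 0.14, edgeR adjusted p = 0.0753).

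In windows of 200 bp the changes could be placed. Of 246885 windows 679 were higher (0.275%) and 2860 lower (1.16%), together 1.43%. Windows 2 to 5 kb from a start were called higher in 0.564% and lower in 1.97%, and those within 200 bp in 0.200% and 0.878%. Windows were named by size among those with separate replicates and a mean count of at least 20 at the higher age, without predicted and small RNA genes, and larger changes were called outside that rule. The largest rise among the named windows was 4900 bp into Atp13a4, a cation-transporting ATPase, where CPM went from 0.460 and 0.343 to 3.76 and 3.54. At P0 this window had 7.61 and 5.85 and at E14 0.215 and 0.112, so each age was above the one before it.

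The largest fall among the named windows was 1700 bp into Pard3, a polarity protein, from 1.49 and 1.002 CPM to 0.153 and 0.122. A window 3500 bp upstream of Pxdn, a peroxidase of the extracellular matrix, fell from 1.49 and 1.503 to 0.0767 and 0.312. These windows hold few reads, with mean counts of 46.5 and 56 at E16.5 and 8.5 and 15.5 at E18. Other windows named by size rose at Nat8f4, Sat1 and Rab17 and fell at Olfr1286 and Serp2.

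The central 2 kb of each region were fitted apart from the flanks, and 115 of 27685 were higher (0.415%) and 508 lower (1.83%), together 2.25%. Of the 70 regions called higher over 10 kb, 34 were also called in the centre (48.6% of those regions and 29.6% of the centres), and of the 297 lower ones 229 (77.1% and 45.1%). Fggy (2.52), Prss56 (1.67) and Nfix (1.09) had larger log2 fold changes in the centre than over 10 kb.

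The course over the other ages was read as a description. In E14 and P0 libraries, which the contrast did not use, both P0 values were above both E14 values in 57 of the 70 regions called higher, against 31.3% of all regions, and below in 243 of the 297 called lower, against 33.9%. Relative to the mean at E16.5, the median of the higher regions was -0.45 and -0.36 at E14, 0.58 and 0.67 at E18 and 0.91 and 0.77 at P0, on the log2 scale. The median of the lower regions was 0.03 and -0.05 at E14, -0.51 and -0.59 at E18 and -0.60 and -0.58 at P0. Single regions called lower went both ways between E14 and E16.5, as in Slc4a8, which was higher at E16.5 than at E14, and Slco1a5, which was lower. The E16.5 values were among those that chose the regions.

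**Figure D5:**
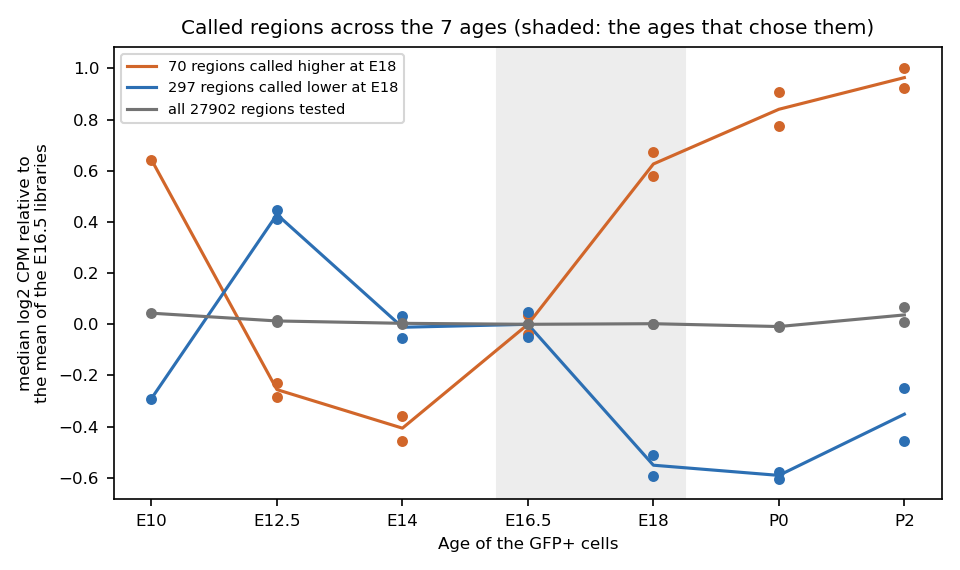
Median log2 CPM relative to the mean of the E16.5 libraries (y axis) over 7 ages of GFP+ cells (x axis), 1 point per library, for regions called higher (orange), called lower (blue) and all regions tested (grey). The E16.5 and E18 values in the shaded part chose the regions, and the P0 libraries lie near E18 on both coloured lines.

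Whether the step from E16.5 to E18 differed from the step before was tested as a difference of steps, which share E16.5. It did in 78 regions in the upward sense (0.28%) and 323 in the downward sense (1.16%), together 1.44%. The largest downward one was Mfap3l, a membrane glycoprotein, which had 7.62 and 6.63 CPM at E14, 76.2 and 82.4 at E16.5 and 99.99 and 86.7 at E18. Its log2 fold change from E16.5 to E18 was 0.23 (SE 0.15) and did not pass. Cd44, a hyaluronan receptor, had 11.5 and 11.0 CPM at E14, 39.1 and 41.4 at E16.5 and 31.7 and 31.9 at E18. Against the step from E18 to P0, 9 regions differed (0.0323%), 5 upward (0.0179%) and 4 downward (0.0143%), while 2014 had an unadjusted p under 0.05. Kctd14, with a potassium-channel type domain, was one of them, with 11.5 and 12.6 CPM at E18 and 46.5 and 42.6 at P0.

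RNA of GFP+ cells was measured at E14, E18 and P2, so no RNA stands beside E16.5 and the ages differ from those of the chromatin step. Values are FPKM, with 2 libraries at each age, and the E14 libraries differed widely from each other for many genes. Prss56 had 1.26 and 0.0150 FPKM at E14, 51.8 and 58.8 at E18 and 4.15 and 2.96 at P2. Nfix had 1.43 and 0.0657, then 5.10 and 5.23, then 72.2 and 55.8. Lin28b had 2.78 and 14.2, then 1.14 and 1.23, then 0.441 and 0.607. In each of these the E18 values lay apart from the E14 values.

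Of 34 genes called higher in chromatin that passed the filter on RNA, 21 were above E14 in both E18 libraries and 4 below, where 35% of 12923 genes were above and 29.9% below. The 21 include the Y-linked genes Ddx3y, Eif2s3y and Uty. Ddx3y had 5.45 and 7.88 FPKM at E14 and 20.5 and 19.9 at E18, and the part of embryo sex was not tested. Of 155 called lower, 42 were above and 50 below. Pou2f1 had 8.27 and 21.4 FPKM at E14 and 14.0 and 14.8 at E18, with overlap, and Slc4a8 had 8.40 and 7.46 at E14 and 7.31 and 7.41 at E18. Btbd3 had 13.8 and 17.9 at E14 and 6.61 and 6.94 at E18, without overlap. These differences in RNA were not tested. Across the 12923 genes Pearson's r between the log2 change of chromatin and that of RNA was 0.0833, a weak relation over genes, which are not independent replicates.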

How the data were processed

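The authors' deposited tables hold raw ATAC read counts per 200 bp window around transcript starts and per gene over exons, on build mm9. RNA values were taken from the authors' deposited table as FPKM, a unit inferred from the values. The submitters' processing notes name Bowtie2, HISAT2, Picard 2.10.7, SAMtools 1.5, bedtools 2.26.0 and featureCounts 1.5.3. Runs of 50 windows were summed into 10 kb regions. The counts of 13 ATAC libraries in 7 ages were fitted in edgeR 4.0.16 (R 4.3.3, TMM scaling, filterByExpr by age, quasi-likelihood test, Benjamini-Hochberg adjusted p under 0.05, 6 residual degrees of freedom). Windows needed a mean count of 20. DESeq2 1.42.0, other scalings, filters and sets of libraries were alternatives. Named regions were the 12 largest called changes in each direction with separate replicates and a mean count of at least 50 at the higher age (8 for genes, 6 for windows with at least 20, 5 for differences of steps), 1 per gene, without predicted and small RNA genes. Where too few were called, the smallest p filled the number. Up to 4 members of each of 25 lists and 32 fixed genes were added; some of these count in the totals but are not reported here by name. Members and lists were chosen with earlier results of these data known. The microRNA regions, the members called without E10 and P2, the counts over other ages, in RNA, by chromosome and by distance, the Gal3st2 ratio and the sequences were chosen after values were seen. RNA was filtered at 1 FPKM in at least 2 libraries, and the correlation used log2(FPKM + 1). In simulated counts for the region comparison over 27902 regions, 38 of 100 changes of 1.5-fold and 65 of 100 of 2-fold were recovered. Beside these 103 regions, 11 unchanged regions were called. All simulated libraries of a region had the same spread, so the wider spread at P2 was not simulated. In the data the SD of the log2 difference between replicates was 0.60 at P2 and 0.16 at E18. The recovered shares hold for the simulated setting only. The part of GC content was not tested. A promoter entry was present for 74.1% of tested regions and 75.2% of called ones. Same-numbered replicates of E16.5 and E18 did not deviate together (r = -0.23), so numbers were not treated as pairs.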

Additional observations from a re-analysis of the deposited data

Results flagged for a closer look

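The step from E16.5 to E18 differed from the step from E14 to E16.5 in 401 start regions and from the step from E18 to P0 in 9, by the edgeR test of the difference of steps. Neighbouring steps share the libraries of one age, so a high or low value at that age enters both.

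Against the step before, the log2 difference was 3.455 at Fggy, 2.73 at Ddx3y, 2.67 at Eif2s3y, 2.585 at Nat8f4 and 2.29 at Uty. In each of these 5 regions both E16.5 libraries were below all libraries of E14 and E18. In the other direction it was -3.24 at Mfap3l, -2.56 at Slc4a8, -2.18 at Cd44, -2.10 at Ifi205 and -1.98 at Plekhb1, where both E16.5 libraries were above both E14 libraries. Ifi205, an interferon-inducible gene, had 15.9 and 14.1 CPM at E14, 48.2 and 50.9 at E16.5 and 40.0 and 36.7 at E18. Plekhb1, a pleckstrin-domain protein, had 12.6 and 13.04 at E14, 41.1 and 37.4 at E16.5 and 29.5 and 31.5 at E18.

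Against the step after, the log2 difference was 2.48 at Ddx3y, 2.30 at Fggy and 2.25 at Uty, and -1.67 at Kctd14, -1.26 at Tmem35a and -1.11 at Bmpr1b. Tmem35a, which lies on chromosome X, had 20.2 and 19.4 CPM at E16.5, 11.8 in both libraries at E18 and 17.1 and 16.4 at P0. Bmpr1b, a receptor for bone morphogenetic proteins, had 25.99 and 29.1 at E16.5, 17.4 and 15.5 at E18 and 21.9 and 19.99 at P0. In both the E18 libraries were below those of either neighbouring age. Ddx3y and Uty lie on chromosome Y, and the part of embryo sex was not tested.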

How the results depend on the processing

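The count of 367 start regions was 2717 with the 4 libraries alone, 2892 without E10 and both P2 libraries, 3304 with start enrichment as a covariate, 135 in DESeq2 and 623 in the central 2 kb, and 36 to 223 when 1 library was left out. Of the differences of steps, the 401 became 3150 without E10 and both P2 libraries and 110 to 308 with 1 library left out, and the 9 became 1450, 3 to 9, and 15 with the replicate block. The 623 central regions became 2640 with the 4 libraries, 2740 without E10 and P2, 2734 with the covariate, 224 in DESeq2, 226 with scaling to the outermost windows and 71 to 304 with 1 library left out. The 28 genes became 1880, 1983 and 2133 in the first 3 of these, 77 with upper quartile scaling, 65 with library totals and 0 to 1 with 1 library left out. The 3539 windows became 13777 with the 4 libraries and 473 to 1520 with 1 left out. Pearson's r with RNA was 0.0428 without a filter on low values. The cause of these shifts was not tested. The replicate block gave 432 regions, 455 differences from the step before, 610 central regions, 37 genes and 3496 windows. Exchanging the E18 numbers in the replicate block, added after seeing the data since r was -0.23, gave 482 regions.

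Among the regions reported here, signs changed only in ones that were not called, mostly near 0. Olig2 had 0.007137 with RLE scaling, 0.0003308 with library totals and 0.007303 in DESeq2. Lhx2 had -0.005445 with upper quartile scaling and -0.01062 with scaling to the outermost windows, and Nrl -0.0001187 with the latter. In the central 2 kb the values were 0.04807 for Neurog2, 0.04622 for Hmga2, 0.06941 for Six6, 0.02635 for Sox2, -0.007451 for Nfic, 0.04467 for Tyrp1, -0.2444 for Kctd14, 0.01633 for Plekhb1 and -0.08183 for Nrl. With 1 library left out the range was -0.03645 to 0.03244 for Olig2, -0.1068 to 0.004126 for Six6, -0.0702 to 0.04336 for Sox2, -0.002367 to 0.113 for Mki67, -0.6237 to 0.1161 for Tyrp1, -0.1291 to 0.1958 for Nrl, -0.2725 to 0.08298 for Tfap2b, -0.05285 to 0.007698 for Neurog2, -0.02131 to 0.159 for Igf2bp1 and -0.2827 to 0.04387 for Dct. With 1 library left at an age, that library was assumed to vary like the others. Depth limits the regions with few reads, such as Gal3st2.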

Other observations

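Regions of further microRNAs and of host transcripts, looked up after values were seen, were read at the same step. That of Mir9-3hg, host of a microRNA of neural progenitors, had 21.9 and 22.0 CPM at E16.5 and 30.1 in both libraries at E18 (log2 fold change 0.45, SE 0.12, edgeR adjusted p = 0.0379), with 38.3 and 37.1 at P0. The region at another start of Mir9-3hg had 61.0 and 58.1 CPM at E16.5 and 63.5 and 68.5 at E18. It did not pass (0.15, SE 0.14, edgeR adjusted p = 0.88). Nor did the regions of Mir9-1 (0.35, SE 0.14), Mir9-2 (0.12, SE 0.18) and Mir9-3 (0.39, SE 0.14). The region of Mir99ahg, the host transcript of Mir99a, had 34.0 and 45.3 at E16.5 and 28.4 and 27.3 at E18 (-0.51, SE 0.14, edgeR adjusted p = 0.0321). The region of Mir124a-1, a neuronal microRNA, had 78.5 and 77.8 at E16.5 and 99.2 and 107 at E18 and did not pass (0.40, SE 0.16, edgeR adjusted p = 0.317).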
